A study of Mus musculus with 6 samples.

Results

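Transforming growth factor beta (TGF-beta) signaling was examined in the mesenchyme of the mouse incisor through 10 genes: the ligands Tgfb1, Tgfb2 and Tgfb3, the receptors Tgfbr1, Tgfbr2 and Tgfbr3, and the latent TGF-beta binding proteins (LTBPs) Ltbp1, Ltbp2, Ltbp3 and Ltbp4. They were chosen by family and taken by gene symbol, with earlier results of these data known, and all 10 were among the 23718 genes of the table. RNA was sequenced from regions cut out by laser capture microdissection from incisors of mice 1 month old. The labels give the strain as C57BL/6, while the methods describe a mixed background. The mesenchymal stem cell (MSC) group held 3 samples from Gli1-CreER;tdT mice and the transit amplifying cell (TAC) group held 3 samples from Axin2-CreER;tdT mice. In both groups a tamoxifen-inducible Cre, under the Gli1 or the Axin2 gene, switches on the red reporter tdTomato (tdT), placed by the methods at Rosa26, and tissue was collected shortly after tamoxifen. All MSC samples carry one driver and all TAC samples the other, so the driver allele and the region cannot be told apart. The methods name 3 mice per group, while the labels tie no sample to a mouse, and a captured region can hold vessels, nerve and other cells beside the labeled ones.

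TGF-beta ligands are secreted in a latent form, each still bound to its own cleaved propeptide. LTBP1, LTBP3 and LTBP4 are large matrix glycoproteins that bind this latent complex through a disulfide bond and anchor it to fibrillin and fibronectin, whereas LTBP2 does not bind latent TGF-beta and is known as a microfibril protein. Once released, the ligand binds TGFBR2, which recruits and phosphorylates TGFBR1, and the active pair phosphorylates the transcription factors SMAD2 and SMAD3. TGFBR3, also called betaglycan, is a proteoglycan that captures ligand at the cell surface and matters most for TGF-beta 2. In teeth the pathway is known for its part in odontoblast differentiation and dentin formation.

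Estimated reads ran from 20203159 to 25567244 in replicates 1 and 2 of both groups, and were 59793645 in MSC replicate 3 and 108156380 in TAC replicate 3. Replicate 3 of both groups stood apart: mitochondrial ribosomal RNA took 0.112% and 0.236% of its reads, against 8.28% to 9.07% in replicates 1 and 2. The text calls replicates 1 and 2 the first library set and replicate 3 the second, and gives each member within both sets. The second set has a single library per group, so its values have no error and a gap between the sets is given as a value. Between 136 and 37511 estimated reads lay behind each member's value in each library. Genes without a read made up 43.1% of all genes in MSC replicate 3 and 28.3% in TAC replicate 3. In replicates 1 and 2 the share was 6.89% to 8.36%. Read number alone therefore does not show how well a gene was sampled in replicate 3. Msx1, Pax9, Lhx6, Lhx8 and Barx1, which mark dental mesenchyme, were all listed, and only Barx1 in MSC replicate 3 had no read. Values are read numbers scaled per library by the authors. They can be compared between samples for a gene, and between genes only after division by transcript length.

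Among the 10 genes, Ltbp2 and Ltbp4 were lower in TAC with an adjusted p-value under 0.05 (limma, Benjamini-Hochberg over 15391 genes), which is 2 of 10 where 0.422% of all genes tested passed and 0.383% passed as higher in MSC. None was higher in TAC by that test. At an unadjusted p-value under 0.05, 5 of 10 were higher in MSC (Tgfb3, Tgfbr3, Ltbp1, Ltbp2 and Ltbp4) and 0 were higher in TAC, where 6.43% and 5.42% of all genes were. The groups did not overlap in 8 of 10 genes, against 24.5% of all genes: 7 were higher in every MSC sample (12.2% of all genes) and 1, Tgfbr1, was higher in every TAC sample (12.3%). The median log2 fold change, TAC minus MSC, was -0.65 over the 10 genes and 0.026 over all genes tested. With the replicate number as a block, 3 of 10 passed, Tgfbr3 being added, where 1.49% of all genes did and 0.884% did as higher in MSC. The block treats same-numbered samples as pairs, which the data do not show for replicates 1 and 2. In the first library set alone 7 of 10 passed, against 44.2% of all genes, and 6 of the 7 were higher in MSC (24.2% of all genes). The error of that fit comes from libraries that are nearly equal. The change was negative in both library sets for 8 of 10 genes (31.2% of all genes) and had opposite directions in them for 1, Tgfbr2 (38.8%).

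**Figure D1:**
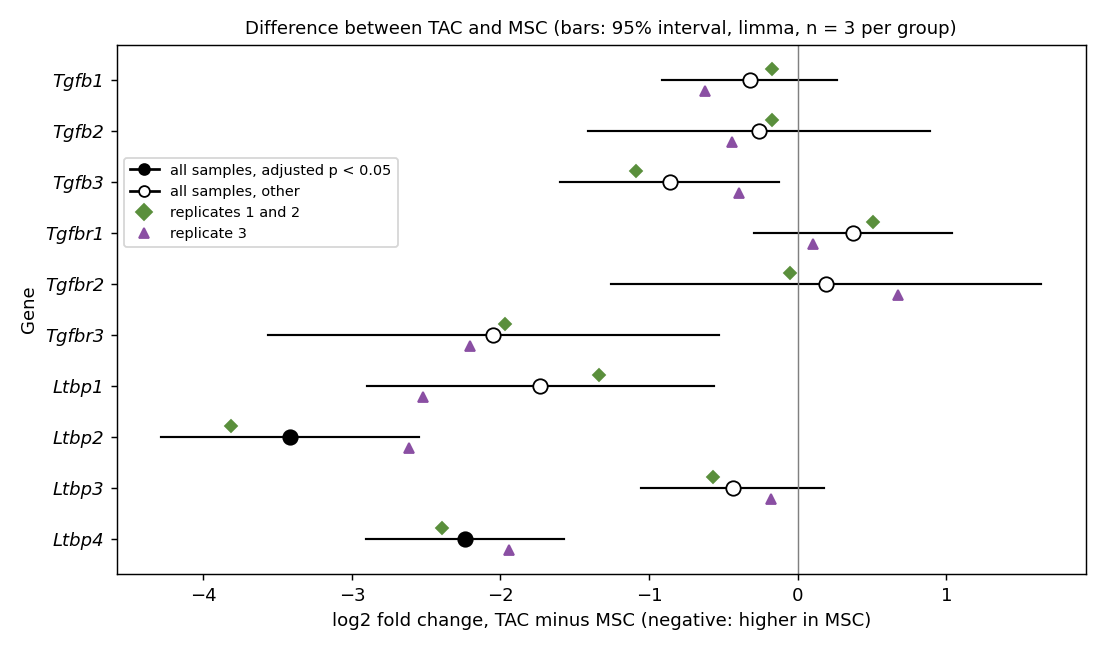
The log2 fold change, TAC minus MSC, of each gene over all samples is shown as a circle with its 95% interval from limma (3 samples per group), filled where the adjusted p-value was under 0.05, with the change within replicates 1 and 2 (diamonds) and within replicate 3 (triangles). Ltbp2 and Ltbp4 are the filled circles, at -3.42 and -2.24, and Tgfbr2 is the gene whose diamond and triangle lie on opposite sides of 0.

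Over all samples Ltbp2 and Ltbp4 had the largest log2 fold changes of the 10 genes. In the second library set, however, those of Ltbp1 and Tgfbr3 exceeded that of Ltbp4 in size. Both also did so with voom (-2.239 and -3.004 against -2.231). Tgfbr3 exceeded Ltbp4 without MSC replicate 3 (-2.53 against -2.19), TAC replicate 1 (-2.43 against -2.08) or TAC replicate 2 (-2.23 against -2.19) as well. Ltbp2, the microfibril protein (chromosome 12, 84783212 to 84876532, minus strand, mm10), was 68.7, 69.0 and 41.7 across MSC and 3.30, 4.72 and 5.97 across TAC. Such lists run from replicate 1 to 3. Every MSC sample was far above every TAC sample, and replicate 3 lay between the others and the opposite group on both sides. MSC averaged 59.8 ± 15.7 and TAC 4.66 ± 1.34 (SD, n = 3 each), so MSC was 12.8 times TAC. The log2 fold change was -3.42 (limma adjusted p 0.0271, SE 0.37), with -3.82 in the first library set and -2.61 in the second. Its adjusted p was 0.222, 0.219, 0.144 and 0.143 without MSC replicate 1, MSC replicate 2, TAC replicate 1 and TAC replicate 2, limma fits in which 0 of the 15391 genes passed and 1028 to 1367 had an unadjusted p-value under 0.05. It was 0.0533 with voom, which called 23 genes, and 0.295 with replicates 1 and 2 averaged. Over all alternatives its log2 fold change ran from -3.82 to -3.21.

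Ltbp4, which anchors latent TGF-beta and takes part in elastic fiber assembly (chromosome 7, 27305136 to 27337692, minus strand), was 109.3, 112.9 and 124.7 across MSC and 18.8, 22.1 and 31.8 across TAC. All MSC samples were close to each other and far above the highest TAC sample. MSC averaged 115.6 ± 8.06 and TAC 24.2 ± 6.73 (SD, n = 3 each), so MSC was 4.78 times TAC. On the log2 scale TAC minus MSC was -2.24 (adjusted p 0.0389, SE 0.28). It was -2.39 in the first library set and -1.94 in the second. Its adjusted p was 0.235, 0.237, 0.189 and 0.210 without MSC replicate 1, MSC replicate 2, TAC replicate 1 and TAC replicate 2, 0.0801 with median-ratio scaling, 0.0906 without the variance trend, 0.0533 with voom and 0.563 with replicates 1 and 2 averaged. Over these and all other alternatives its log2 fold change ran from -2.45 to -2.08.

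Ltbp1 (chromosome 17, 75005568 to 75392512, plus strand) anchors latent TGF-beta as well. It was 11.97, 9.36 and 25.5 across MSC and 3.92, 3.28 and 3.61 across TAC. The TAC samples were nearly equal, while MSC replicate 3 was well above the other MSC samples. Its log2 fold change of -1.73 (SE 0.50) did not pass over all genes (adjusted p 0.228), with -1.34 in the first library set and -2.52 in the second. Ltbp3, known for its part in tooth and bone growth (chromosome 19, 5740904 to 5758532, plus strand), was 205.4, 198.3 and 161.3 across MSC and 135.1, 136.6 and 142.2 across TAC. The groups did not overlap, yet the gap between MSC replicate 3 and TAC replicate 3 was small. MSC averaged 188.3 ± 23.6 and TAC 138.0 ± 3.74 (SD, n = 3 each), a log2 fold change of -0.44 (adjusted p 0.574, SE 0.26, 95% interval -1.05 to 0.17). Its change was -0.57 in the first library set (limma adjusted p 2.00e-05 within it, where 44.2% of all genes passed) and -0.18 in the second. The use of strand in counting is not known, and the antisense gene D030025P21Rik, which shares 764 exonic bases with Ltbp2, was at 0.847 or less in every sample.

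**Figure D2:**
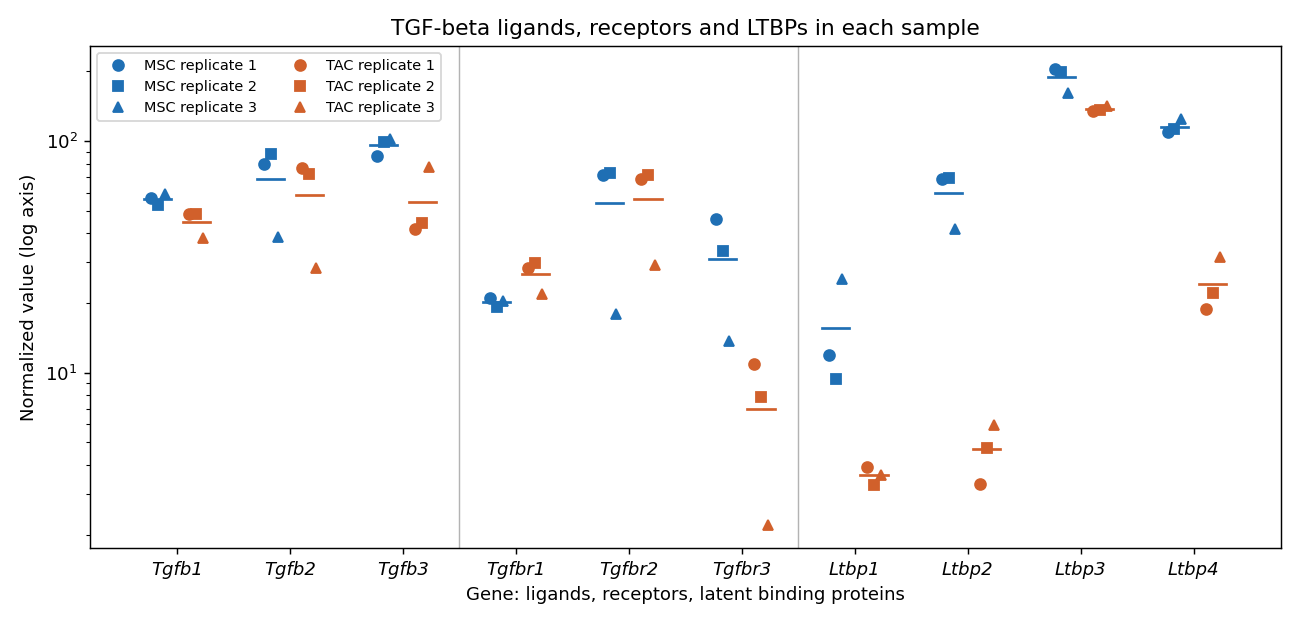
Normalized values on a log axis are shown for each of the 6 samples (blue for MSC, orange for TAC, a marker shape per replicate number), with a bar at each group's mean. Ltbp2 and Ltbp4 are set widely apart, with MSC samples from 41.7 and 109.3 upward against TAC samples up to 5.97 and 31.8, while Tgfb2 and Tgfbr2 overlap and replicate 3 is the lowest sample of its group in both.

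The sequence before the start sites of Ltbp2 and Ltbp4, which passed the test, is shown beside that of Ltbp3, which did not, from RefSeq on GRCm38.p6. Each line runs 5′ to 3′ on the coding strand, within the 250 bases before an annotated start and leaving out bases that GENCODE places in an exon of the gene. Capitals mark CAGAC, the core of the SMAD binding element, and GGGCGG, the GC box, on either strand (GTCTG and CCGCCC in reverse), and neighbouring GC boxes can overlap.
Ltbp2, chr12:84876533-84876741, minus strand: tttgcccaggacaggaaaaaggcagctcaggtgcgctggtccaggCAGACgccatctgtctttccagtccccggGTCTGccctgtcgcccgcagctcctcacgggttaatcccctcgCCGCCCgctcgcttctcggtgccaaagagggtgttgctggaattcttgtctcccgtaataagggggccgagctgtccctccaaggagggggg
Ltbp4, upstream start, chr7:27337693-27337862, minus strand: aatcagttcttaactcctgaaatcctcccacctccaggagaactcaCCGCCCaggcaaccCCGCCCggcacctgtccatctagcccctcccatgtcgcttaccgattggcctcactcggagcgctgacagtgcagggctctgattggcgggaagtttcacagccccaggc
Ltbp4, internal start, chr7:27333664-27333913, minus strand: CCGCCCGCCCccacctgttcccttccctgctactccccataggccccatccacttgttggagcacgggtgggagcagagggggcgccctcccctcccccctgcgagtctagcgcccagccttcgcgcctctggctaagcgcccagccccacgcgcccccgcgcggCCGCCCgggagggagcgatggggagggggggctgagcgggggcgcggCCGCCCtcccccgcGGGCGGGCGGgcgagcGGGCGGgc
Ltbp3, chr19:5740650-5740899, plus strand: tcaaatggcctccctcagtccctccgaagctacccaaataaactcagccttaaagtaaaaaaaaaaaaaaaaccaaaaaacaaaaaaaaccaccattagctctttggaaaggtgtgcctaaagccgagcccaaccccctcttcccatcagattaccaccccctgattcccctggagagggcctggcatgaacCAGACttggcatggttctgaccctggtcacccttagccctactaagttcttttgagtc

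Over the whole 250-base windows, Ltbp2 held CAGAC at 2 places, Ltbp3 at 1, the windows of Ltbp1 at 1 and 2 places and none of the Ltbp4 windows did, where 42.2% of 32851 mouse promoter windows of this length hold it. GGGCGG was found in 32.7% of all windows, at 2 places in that of Ltbp2, 3 and 7 in the Ltbp4 windows printed, and nowhere in those of Ltbp3 and Ltbp1. The window of Ltbp3 was 47.2% G or C and that of the internal Ltbp4 start 79.2%, against a median of 52.4% over all windows. The files do not separate reads by start site, so the values of Ltbp4 cannot be split between its starts. Of the 10 genes, 8 had an entry in the promoter table.

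Of the ligands, 0 of 3 passed the adjusted threshold in limma (0.422% of all genes), and 1 of 3 had an unadjusted p-value under 0.05 (11.9% of all genes). That ligand was Tgfb3 (chromosome 12, 86056745 to 86079041, minus strand), best known for its need in palate fusion. It was 86.2, 99.3 and 102.1 across MSC and 41.8, 44.1 and 77.2 across TAC. No TAC sample reached an MSC sample, and TAC replicate 3 was much nearer to them than the other TAC samples were. MSC averaged 95.9 ± 8.48 and TAC 54.4 ± 19.8 (SD, n = 3 each), so MSC was 1.76 times TAC. This is a log2 fold change of -0.86 (adjusted p 0.343, SE 0.31). It was -1.09 in the first library set and -0.40 in the second. Tgfb3 spans 5149 bases of Ttll5 on the other strand, without a shared exonic base, and shares 163 and 257 exonic bases with the opposite-strand genes Gm37804, at 1.77 or less in every sample, and Gm48008.

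Tgfb1 (chromosome 7, 25687002 to 25705077, plus strand), the ligand most abundant in bone matrix and platelets, was 56.6, 52.9 and 59.2 across MSC and 48.3, 48.5 and 38.1 across TAC. The groups stood apart by a narrow margin. The ratio of the means was 1.25 and the log2 fold change -0.32 (adjusted p 0.680, SE 0.25, 95% interval -0.91 to 0.26). It was -0.17 in the first library set and -0.62 in the second. Tgfb2 (chromosome 1, 186622792 to 186705989, minus strand), the isoform that relies on betaglycan, was 79.4, 87.8 and 38.6 across MSC and 76.2, 71.9 and 28.2 across TAC. Its groups overlapped, and in both the third replicate was well below the others. The log2 fold change was -0.26 (adjusted p 0.897, SE 0.49), each TAC value was below the MSC value of the same number, and the change became 0.19 without TAC replicate 3. Within the first library set it was -0.17 and within the second -0.44.

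Among the receptors, Tgfbr3, which encodes betaglycan (chromosome 5, 107106570 to 107289629, minus strand), showed the widest gap. It was 45.9, 33.4 and 13.7 across MSC and 10.9, 7.88 and 2.19 across TAC. All MSC samples were above all TAC samples, although MSC replicate 3 was close to TAC replicate 1. Within each replicate number MSC was 4.23, 4.24 and 6.27 times TAC. MSC averaged 31.0 ± 16.2 and TAC 6.98 ± 4.40 (SD, n = 3 each). On the log2 scale TAC minus MSC was -2.05 (adjusted p 0.275, SE 0.65). With the replicate block the SE was 0.26 and the adjusted p 0.0491. The change was -1.97 in the first library set and -2.21 in the second.

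Tgfbr1, the signaling kinase (chromosome 4, 47353222 to 47414931, plus strand), was 21.1, 19.2 and 20.3 across MSC and 28.3, 29.8 and 21.9 across TAC. It was the member higher in every TAC sample, but TAC replicate 3 exceeded the highest MSC sample by little. Its log2 fold change was 0.37 (adjusted p 0.676, SE 0.28, 95% interval -0.29 to 1.04). It was 0.51 in the first library set (limma adjusted p 0.00523 within it, where 44.2% of all genes passed) and 0.10 in the second. Tgfbr2, the ligand-binding kinase (chromosome 9, 116084293 to 116175360, minus strand), was 71.8, 73.1 and 17.9 across MSC and 68.9, 71.1 and 29.1 across TAC. Replicates 1 and 2 of both groups were almost level and replicate 3 of both was far below them. The log2 fold change was 0.19 (adjusted p 0.9496, SE 0.62, 95% interval -1.26 to 1.64), with -0.050 in the first library set and 0.67 in the second. Its direction turned without MSC replicate 3, to -0.46, and without TAC replicate 1 or 2, to -0.0038 and -0.026. A test of the difference between the library sets takes its error from the nearly equal replicates 1 and 2 and passed for 57.2% of all genes, and for 7 of the 10, so nothing is read from it.

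Levels of different genes were compared per kb of the longest coding transcript. In MSC, Ltbp3 was highest at 36.3 ± 4.56 (SD, n = 3), followed by Tgfb3 at 28.3 ± 2.51, Tgfb1 at 25.9 ± 1.47 and Ltbp4 at 21.5 ± 1.496. The ranges of Tgfb3 and Tgfb1 overlapped, those of Ltbp3 and Tgfb3 did not, and Ltbp4 was below Tgfb1 in every sample. In TAC, Ltbp3 was again highest at 26.6 ± 0.721, with Tgfb1 at 20.7 ± 2.72, Tgfb3 at 16.1 ± 5.86 and Tgfb2 at 11.5 ± 5.19, and the ranges of Tgfb1 and Tgfb3 overlapped. Ltbp4 was at 4.49 ± 1.25 in TAC. All 3 receptors were below all 3 ligands by their means, with Tgfbr2 at 6.71 ± 3.89 in MSC and 6.96 ± 2.92 in TAC, and Tgfbr1 at 3.51 ± 0.158 and 4.63 ± 0.724. Ltbp1 was at 2.34 ± 1.30 and 0.540 ± 0.0476, the lowest mean of the 10 genes in both groups, though not the lowest gene in MSC replicate 3 or in TAC replicates 1 and 3.

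**Figure D3:**
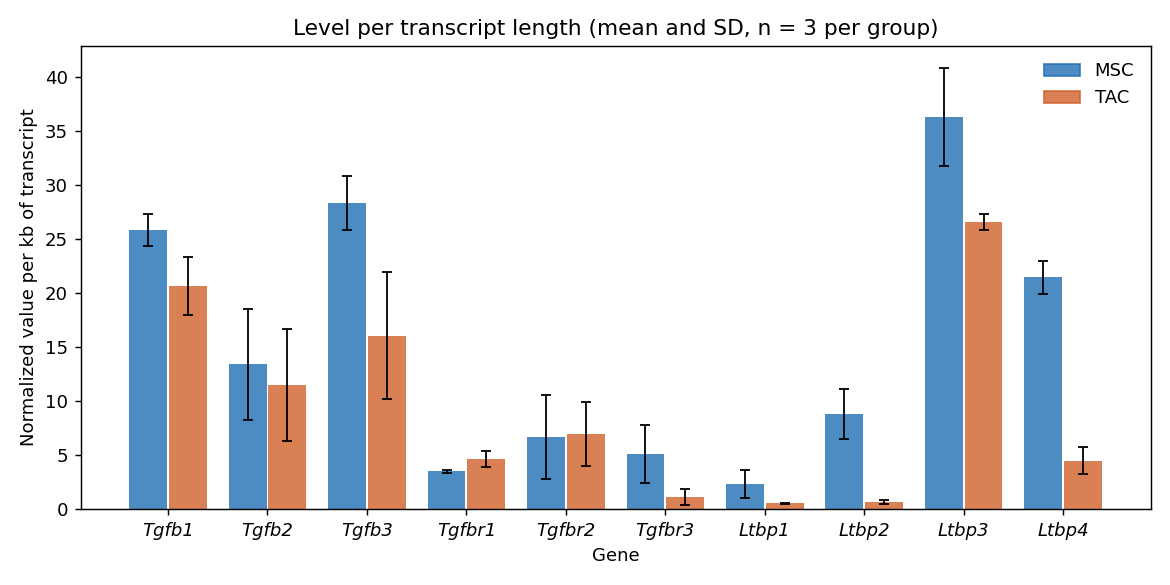
Bars show the mean normalized value per kb of transcript of each gene in MSC (blue) and TAC (orange), with the SD over 3 samples. Ltbp3 is the tallest bar in both groups, at 36.3 and 26.6, and Ltbp2 falls from 8.83 in MSC to 0.689 in TAC.

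Within each library, the share of the 3 ligands per kb does not depend on scaling between libraries. Tgfb3 made up 38.01%, 41.5% and 46.4% of the sum across MSC and 25.0%, 26.4% and 49.8% across TAC. TAC replicate 3 thus had the highest share of all, and the other TAC samples the lowest. The mean share in TAC minus that in MSC was -8.25 percentage points for Tgfb3, 4.39 for Tgfb1 and 3.87 for Tgfb2, and the last became -0.16 without MSC replicate 3. With a sample left out the value for Tgfb3 ran from -16.3 without TAC replicate 3 to -3.88 without TAC replicate 1, and that for Tgfb1 from 2.36 without MSC replicate 2 to 6.65 without TAC replicate 3. Without division by length the values were -8.50 for Tgfb3, 2.64 for Tgfb1 and 5.85 for Tgfb2. Exact two-sided permutation tests over the 6 samples gave p = 0.4, 0.3 and 0.5, each 0.5 after adjustment over the 3 ligands, where 0.1 is the smallest p that 3 against 3 samples allow.

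The other pathway genes were read from lists of 55 genes by role, of which 53 reached the mean required for testing. Only Ctgf passed the adjusted threshold, 1 of 53, against 0.422% of all genes. At an unadjusted p-value under 0.05, 10 of the 53 were higher in MSC (6.43% of all genes) and 2 in TAC (5.42% of all genes). Their median log2 fold change was -0.049, near the 0.026 of all genes. Ctgf, now named Ccn2, encodes a matricellular protein that TGF-beta and YAP both induce. It was 47.8, 47.5 and 61.3 across MSC and 10.3, 7.93 and 5.49 across TAC, a ratio of the means of 6.60. Its log2 fold change was -2.60 (adjusted p 0.0389, SE 0.34), with -2.27 in the first library set and -3.26 in the second, and its adjusted p was 0.0592 without TAC replicate 3 and 0.157 to 0.241 without MSC replicate 1 or 2 or TAC replicate 1 or 2. It was also 0.0744 with median-ratio scaling, 0.0733 without the variance trend and 0.464 with replicates 1 and 2 averaged. Its log2 fold change stayed between -2.79 and -2.39 in these fits. With the replicate block 2 of 53 passed, against 1.49% of all genes: beside Ctgf that was the microfibril gene Fbn2, named after its values were seen, which was higher in TAC at 1.64 (adjusted p 0.0494 with the block, 0.444 without).

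Of 15 genes of latency and activation 0 passed in limma, with 4 at an unadjusted p-value under 0.05, all higher in MSC (6.43% of all genes), and a median log2 fold change of -0.049. Itgb5, a subunit of an integrin that binds the latency propeptide, was 52.5 to 55.0 in MSC and 14.2 to 25.2 in TAC, a log2 fold change of -1.36 (adjusted p 0.145). Lrrc32, which tethers latent TGF-beta to the cell surface, was 10.3 to 14.2 in MSC and 0.0959 to 3.61 in TAC (-2.56, adjusted p 0.179). The gelatinase Mmp9, which can release latent TGF-beta, was 16.7 to 21.3 and 1.05 to 4.99 (-2.28, adjusted p 0.156). These were named for their small p-values. Over the list, groups did not overlap in 4 genes with MSC above TAC and in 2 with TAC above MSC, against 12.2% and 12.3% of all genes. Fbn1, the main fibrillin that LTBPs bind and named after its values were seen, differed by -0.13 (adjusted p 0.965).

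Of the 5 matrix traps, which hold ligand in the matrix, 0 passed, with 1 at an unadjusted p-value under 0.05 in each direction (6.43% of all genes higher in MSC, 5.42% higher in TAC). Dcn, encoding decorin, was 31.0 to 40.0 in MSC and 63.8 to 118.3 in TAC (1.09, adjusted p 0.254), while fibromodulin (Fmod) and biglycan (Bgn) differed by -0.66 and -0.77 (adjusted p 0.370 and 0.605). The change of Bgn was -0.42 without MSC replicate 3 and -1.20 without TAC replicate 3. Of 5 accessory receptors 0 passed, also with 1 in each direction at an unadjusted p-value under 0.05, against the same shares of all genes. Bambi, a decoy receptor without a kinase, was 50.9 to 70.3 in MSC and 130.4 to 139.8 in TAC, a log2 fold change of 1.21 (adjusted p 0.126). Without MSC replicate 3 it was 1.36 and passed (adjusted p 0.0389), where 1.90% of all genes did. Eng, a coreceptor best known from endothelium, was 56.6 to 75.2 in MSC and 24.1 to 34.9 in TAC (-1.16, adjusted p 0.167), and its partner receptor Acvrl1 differed by -0.36 (adjusted p 0.716).

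Among the SMADs, 0 of 4 had an unadjusted p-value under 0.05. Smad2, Smad3 and Smad4 differed by 0.36, 0.049 and 0.021 (adjusted p 0.706, 0.974 and 0.993), and the last 2 turned direction with median-ratio scaling, to -0.024 and -0.051. Over all samples none of 9 repressors and ubiquitin ligases passed, with 2 at an unadjusted p-value under 0.05, both higher in MSC (6.43% of all genes). Nedd4l, a ubiquitin ligase that acts on phosphorylated SMADs, was 59.6 and 64.8 in MSC replicates 1 and 2 but 5.29 in MSC replicate 3, against 0.398 to 3.57 in TAC (-3.36, adjusted p 0.236). Without MSC replicate 3 it was -4.47 and passed (adjusted p 0.0389), in a fit where 1.90% of all genes did. Smurf1 and Pmepa1, which limit receptor and SMAD activity, differed by -0.88 and -1.15 (adjusted p 0.368 and 0.440). Over all alternatives the change of Pmepa1 ran from -1.48 to -0.69. Among 17 known targets 15 were tested, with a median of -0.027. After Ctgf, the transcriptional repressor Bhlhe40 and the focal adhesion gene Tgfb1i1 had the smallest p-values, at -1.66 and -1.12 (adjusted p 0.300 and 0.434). Tgfb1i1 went in opposite directions, by -1.87 in the first library set and by 0.37 in the second.

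**Figure D4:**
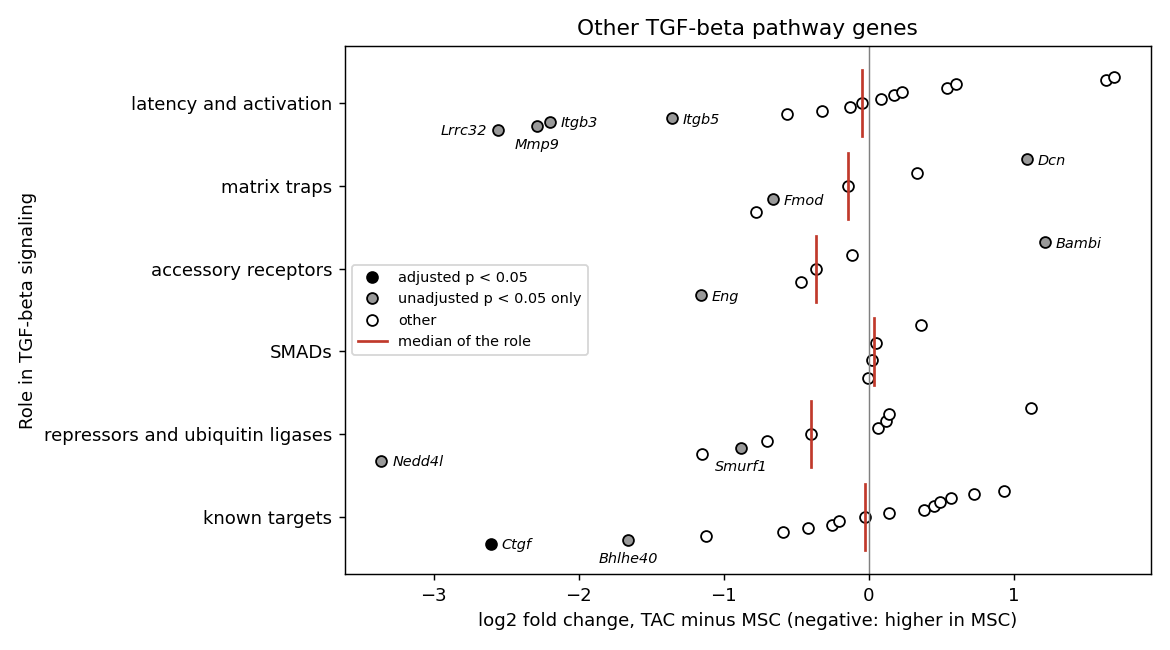
Each point is the log2 fold change, TAC minus MSC, of 1 of the 53 other pathway genes tested, by role, black where the adjusted p-value was under 0.05 (Ctgf, at -2.60) and grey where only the unadjusted p-value was. Red lines mark the median of each role, from -0.40 for the repressors and ubiquitin ligases to 0.035 for the SMADs.

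Marker lists of other cell types also differed between the groups, and bulk samples cannot tell fewer cells of a type from less RNA per cell. The 5 smooth muscle markers, all listed, summed to 313 to 445 in MSC and 2.66 to 12.4 in TAC. Of these, 3 of the 4 tested were lower in TAC past the adjusted threshold, which 0.383% of all genes passed as higher in MSC and 0.039% as higher in TAC. Des had no read in MSC replicate 3, and Cnn1 and Des had none in TAC replicate 3. The 5 pericyte markers summed to 616 to 1184 and 172 to 204, with 1 of 5 past the threshold, and the 6 endothelial markers to 155 to 238 and 74.1 to 91.9, with 0 of 6. The 5 Schwann cell markers summed to 20.2 to 43.2 and 6.09 to 19.2, with 0 of 4 tested. Sums of the markers of dividing cells were higher in TAC, at 89.0 to 192 in MSC and 258 to 921 in TAC, with 1 of 5 past the threshold. Dental epithelium markers were also higher in TAC, at 24.6 to 31.0 and 44.2 to 88.5, with 0 of 5 past the threshold. The 5 dental mesenchyme markers summed to 261 to 293 and 203 to 231, with 0 of 5 past the threshold. Their directions differed. Of the 5, 4 were lower in TAC, such as Pax9 (mean 133 in MSC, 49.3 in TAC). Msx1 was higher in every TAC sample (mean 93.4 in MSC, 143.8 in TAC). Macrophage, ameloblast, odontoblast and osteoclast sums overlapped between the groups, as did skeletal muscle, where 1 of 3 markers was listed, at 0.241 or less. MSC replicate 3 stood apart in this too, with an odontoblast sum of 606 against 3339 to 5047 in the other samples and an ameloblast sum of 269 against 2090 to 3632. The lower TAC values of Ltbp2, Ltbp4, Ctgf, Tgfbr3 and Eng thus lay beside lower smooth muscle, pericyte and endothelial sums, and the part of these cells in those values was not tested.

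The genes whose profiles were most like that of the leading member of each role are given as a description, by Pearson's r of log2(value + 1) over the same 6 samples. For Ltbp2 these were Zswim8, Foxc2 and Slc1a1 (r = 0.998, 0.997 and 0.996), among 177 genes with r above 0.95. Their log2 fold changes were -0.78, -3.02 and -2.78 (adjusted p 0.255, 0.0390 and 0.0764), so a like profile did not mean a change of like size. For Tgfbr3 they were Fchsd1, Irak3 and Zfpm1 (r = 0.996, 0.996 and 0.994), and for Tgfb3 they were Ccdc88b, Mapk8ip3 and Jph4 (r = 0.993, 0.990 and 0.990).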

How the data were processed

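RNA of laser-captured incisor regions was sequenced in 3 MSC and 3 TAC samples, grouped by sample title. Per the labels and methods, the authors used CASAVA 1.8.2, TopHat2 2.0.8 on mm10 and Partek. Their methods name RPKM, but many genes of a library sit at its lowest value, and low values step in units of it (66.8% to 76.2% of them within 0.05 of a whole number), so the deposited values were treated as a signal: an estimated read number plus 1, scaled per library, with length not divided out. The counting tool and use of strand are not given in the sources used here. Estimated reads are the value divided by the library's lowest value, minus 1.

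Values were taken as log2(value + 1), and limma 3.58.1 (R 4.3.3) was fitted with a variance trend to 15391 genes (mean over all samples 1 or more), TAC minus MSC, two-sided, Benjamini-Hochberg threshold 0.05, after the script was tested on simulated data. A fold change is on this scale and understates low genes. Adjusted p-values in the text come from this fit unless another is named. Intervals are at 95% and p-values measure the spread between these samples. All 10 gene spans matched GENCODE M21 (1-based), which also gave transcript lengths, overlaps and Ctgf as the listed name of Ccn2.

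The members and lists were chosen with earlier results of these data known. Named were all members, per role list the 3 pathway genes with the smallest p and any past the threshold, and the 3 genes most correlated with the leading member of each role. Deviations of same-numbered samples from their group means correlated at 0.477, 0.465 and 0.517 across genes. Crossing the numbers within the first library set changed little: 0.480 for MSC replicate 2 and TAC replicate 1, 0.462 for MSC replicate 1 and TAC replicate 2. Pairing by number is therefore not shown for replicates 1 and 2. The shared deviation only separates replicate 3 from them, and the replicate block is given as an alternative with that limit. Alternatives covered pseudocount, filters, scaling, variance models, blocks and samples left out.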

Additional observations from a re-analysis of the deposited data

How the results depend on the processing

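Replicate 3 stood apart and few libraries carry each call. Of the 10 genes 2 passed the adjusted threshold. The count was 1 (Ltbp2) with median-ratio scaling (0.149% of all genes) or without the variance trend (0.188%), 0 with voom on recovered reads (0.149%, unadjusted 5 against 3576 of all genes, both Ltbp2 and Ltbp4 at 0.0533) or with replicates 1 and 2 averaged (unadjusted 3), 5 with library set as a batch term (replicates 1 and 2 against 3, 11.8% of all genes), 7 in replicates 1 and 2 (44.2% of all genes), and 0 to 2 with a sample left out (0 to 1.90%). The unadjusted count of 5 became 9 in replicates 1 and 2 (7983 of the 15391 genes), 3 with these averaged (615 genes), and 3 to 6 with a sample left out. Among pathway genes the adjusted count of 1 became 0 with median-ratio scaling, no variance trend or averaging, 2 with the replicate block (1.49% of all genes), 16 with the batch term (11.8%), 34 in replicates 1 and 2 (44.2%), and 0 to 3 with a sample left out. Their unadjusted count of 12 became 21 with the replicate block (3136 of all genes), 25 with the batch term (4554), 36 in replicates 1 and 2 (7983) and 5 with averaging (615). The difference between library sets, from which nothing is read, passed for 7 members (57.2% of all genes). Without the variance trend it passed for 3, a fit whose share over all genes is not given. The block gave 3 members, adding Tgfbr3, and 6 at an unadjusted p, adding Ltbp3 (0.0268 against 0.136), and changed no other member's call. Ltbp1 was not tested under a minimum mean of 10. The cause was not tested.

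Directions turned for Tgfb2 with single samples left out (-0.63 to 0.19, the latter without TAC replicate 3), for Tgfbr2 in replicates 1 and 2 (-0.050) and with samples left out (-0.46 without MSC replicate 3 to 0.60, with -0.0038 and -0.026 lacking TAC replicate 1 or 2), for Smad3 with median-ratio scaling (-0.024), in replicates 1 and 2 (-0.17) and lacking MSC or TAC replicate 3 (-0.042, -0.080, range to 0.13), for Smad4 with median-ratio scaling (-0.051), averaging (-0.0097) and with samples left out (-0.33 without MSC replicate 3 to 0.43, with -0.21 and -0.16 lacking TAC replicate 1 or 2), and for the Tgfb2 share with samples left out (-0.16 without MSC replicate 3 to 9.63 points). The other 8 members kept their direction in all alternatives that gave a value.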

Other observations

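Sums over a role were formed after the values were seen and are given as a description, without a test. Per kb of transcript, the 3 ligands summed to 67.0, 70.8 and 65.0 across MSC and 49.4, 49.4 and 45.9 across TAC. The 4 LTBPs summed to 71.8, 70.8 and 64.2 in MSC and 30.6, 31.6 and 34.7 in TAC. The LTBP sum divided by the ligand sum averaged 1.02 ± 0.0449 for MSC and 0.672 ± 0.0743 for TAC (SD, n = 3 each), a quotient within each library that does not depend on its scaling. Ltbp3 made up 48.4% to 55.1% of the LTBP sum in MSC and 78.9% to 85.1% in TAC. Ltbp4 made up 28.3% to 36.0% and 11.4% to 16.98%, and Ltbp2 9.59% to 14.4% and 1.59% to 2.54%. Tgfbr3 made up 28.2% to 37.6% of the receptor sum in MSC and 4.64% to 11.7% in TAC, with no overlap between the groups.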
